A study of Arabidopsis thaliana with 4 samples.

Results

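The 9 genes described here make up a core set of the aliphatic glucosinolate pathway of Arabidopsis thaliana: the transcription factors MYB28, MYB29 and MYB76, the enzymes CYP79F1, CYP79F2 and CYP83A1 that begin the core structure, and BCAT4, MAM1 and MAM3 of methionine chain elongation. They were chosen as a list of locus identifiers of known pathway genes, with no threshold on their values, and all 9 were found among the 33602 genes of the gene tables. The study compared a sORF1511 overexpressor, named line 7 in the design text and 7_13 in the sample titles, with Col-0 (WT), the reference accession. RNA came from seedlings, 12 days old per the labels, with 2 libraries per genotype, each a pool of 5 seedlings, which the labels call biological replicates. Whether both names mean the same line is not stated. With no second line named, what belongs to the line and what to overexpression cannot be told apart. The sources used here do not give the promoter of the transgene. The series as a whole looks for peptides of the phloem with a putative role in flowering time, and glucosinolates are carried in the phloem.

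Glucosinolates are sulfur-rich defence compounds of the cabbage order. In the aliphatic branch methionine is deaminated and its side chain lengthened in repeated cycles, the elongated amino acid is converted to an aldoxime and then to the glucosinolate core, and the side chain is modified last. When tissue is damaged, thioglucosidases called myrosinases release isothiocyanates or nitriles from the stored compounds. MYB28 and MYB29 are the main activators of the branch, with MYB76 as an accessory one, and they act together with MYC factors of the jasmonate pathway.

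The 9 genes as a group were at nearly the same level in both genotypes. Their summed expression was 1289 and 1033 CPM in overexpressor replicates 1 and 2, against 1065 and 1180 CPM in WT replicates 1 and 2. Values in CPM are relative to library size, from the estimated reads after TMM scaling, which sets libraries on a common scale. The means of 1161 ± 181 CPM in the overexpressor and 1122 ± 81.5 CPM in WT (SD, n = 2 each) differed by less than the spread between replicates (two-sided exact permutation p = 1, where the smallest p that 2 libraries against 2 allow is 0.333). MAM3 and CYP79F2 departed from the group: these less expressed genes of their tandem pairs were lower in both overexpressor libraries than in both WT libraries.

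Across all 9 members, 0 passed the threshold of 0.05 on the p of edgeR (quasi-likelihood F test), adjusted by Benjamini-Hochberg over the 19474 genes tested, and 2 had an unadjusted p below 0.05. Among all genes tested 0.139% were called higher and 0.0103% lower by that rule, while 21.7% had an unadjusted p below 0.05. Those shares are 27 and 2 genes, against 570 and 239 when libraries were scaled by size only. DESeq2 called 0 members higher and 2 lower, MAM3 and CYP79F2, against a background of 4.41% of genes called higher and 1.48% lower. Limma-voom called 0 members. The median log2 fold change of the members, overexpressor over WT, was -0.04, beside -0.01 over all genes tested. Both overexpressor libraries lay above both WT libraries for 1 member and below them for 2, against 28.7% and 28.4% of all genes tested, so neither share of the 9 members exceeds the background.

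The libraries differed in composition and in tissue markers. Total estimated reads ran from 13974460 to 25740234. Chloroplast ribosomal RNA took 0.956% to 1.08% of the reads in overexpressor libraries, against 28.1% in WT replicate 1 and 1.29% in WT replicate 2. Since TPM, which divides reads by gene length, shares out a fixed total, all nuclear genes of WT replicate 1 have lowered TPM, so genes are compared in TPM within a library and libraries are compared in CPM. The 5 leaf mesophyll markers summed to between 46491 and 50090 CPM in the overexpressor and between 41810 and 42118 CPM in WT. The 7 root endodermis markers, CASP1 to CASP5, ESB1 and MYB36, summed to between 5.41 and 6.67 CPM in the overexpressor, against 16.7 and 29.4 CPM in WT, with CASP5 at 0 reads in 3 of the 4 libraries. The 3 root hair markers COBL9, EXPA7 and EXPA18 summed to 0.156 and 0.510 CPM in the overexpressor, against 0.358 CPM in WT replicate 1 and 7.45 CPM in WT replicate 2. Leaf and root tissue were thus both detected, with less summed endodermis marker RNA in both overexpressor pools. Of the 4 endodermis markers tested, 0 passed in edgeR (lowest adjusted p 0.0814 after Benjamini-Hochberg adjustment). Both overexpressor libraries lay below both WT libraries for 3 of them, beside 28.4% of all genes tested, and MYB36 overlapped. In bulk samples fewer cells of a type and less RNA per cell cannot be told apart.

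**Figure D1:**
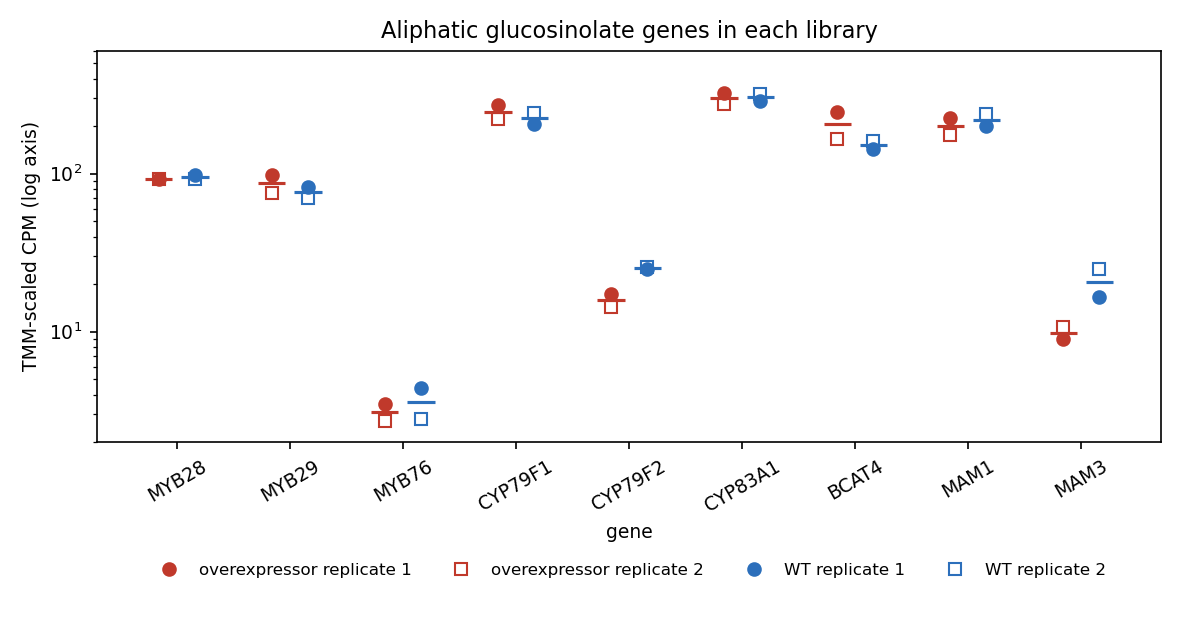
CPM after TMM scaling (log axis) of each of the 9 genes, with 1 point per library and a bar at the mean of each genotype (n = 2). MAM3 and CYP79F2 are below WT in both overexpressor libraries, BCAT4 is above, and the other 6 genes overlap.

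In the order of levels per length, CYP83A1 was the highest of the 9 in all 4 libraries, with 223 and 195 TPM in the overexpressor and 164 and 248 TPM in WT. MYB28 was the fifth, MYB29 the sixth and MYB76 the last in each library. The places between were exchanged: BCAT4 was the second in both overexpressor libraries and the third in both WT libraries, while MAM1 was the fourth in both overexpressor libraries and the second in both WT libraries. The order of CYP79F1, BCAT4 and MAM1 was the same in both libraries of a genotype and differed between genotypes, as a description with no test. CYP79F2 and MAM3 shared the seventh and eighth places, CYP79F2 ahead in 3 libraries and MAM3 in WT replicate 2.

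Among the regulators, MYB28 (AT5G61420), the activator with the broadest effect on short- and long-chained aliphatic glucosinolates, had 93.0 and 92.0 CPM in the overexpressor, against 97.5 and 92.7 CPM in WT. All 4 values lie within a narrow range. Its log2 fold change was -0.04 ± 0.08 (SE), with a 95% interval of -0.25 to 0.17 and an adjusted p of 0.803 from edgeR with Benjamini-Hochberg adjustment. MYB29 (AT5G07690), which raises mainly short-chained aliphatic glucosinolates, had 98.1 and 75.6 CPM in the overexpressor, against 82.9 and 70.5 CPM in WT. The genotypes overlap, and the log2 fold change of 0.18 ± 0.16 had an interval of -0.22 to 0.59. MYB76 (AT5G07700), the accessory factor next to MYB29 on the chromosome, was the weakest of the 3, with 3.49 and 2.73 CPM in the overexpressor and 4.38 and 2.82 CPM in WT. Its log2 fold change of -0.19 ± 0.32 had a wide interval, -0.99 to 0.61, which at 49 to 78 reads a library could hold a difference of either sign. In every library MYB28 and MYB29 were within 1.5-fold of each other in TPM, MYB29 at 98.6% and 77.3% of MYB28 in the overexpressor and 79.0% and 71.3% in WT. MYB76 stood at 5.85% and 4.67% of MYB28 in the overexpressor and 6.99% and 4.77% in WT.

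Of the enzymes that begin the core structure, CYP79F1 (AT1G16410), which turns both short- and long-chained methionine derivatives into aldoximes, had 272 and 221 CPM in the overexpressor, against 207 and 243 CPM in WT. These values overlap, with a log2 fold change of 0.13 ± 0.14 and an interval of -0.23 to 0.49. CYP79F2 (AT1G16400), its neighbour, accepts long-chained derivatives only and is known for strong expression in hypocotyl and roots. CYP79F2 had 17.3 and 14.3 CPM in the overexpressor, against 25.0 and 25.8 CPM in WT, so that the genotypes did not overlap. Its log2 fold change was -0.69 ± 0.14, which is a fold of 0.62 (95% interval 0.487 to 0.788). The adjusted p was 0.112 with edgeR and 0.0197 with DESeq2, both after Benjamini-Hochberg adjustment, and was between 0.0565 and 0.659 with edgeR when each library was left out in turn. CYP83A1 (AT4G13770), which oxidises the aldoximes of this branch, had 325 and 276 CPM in the overexpressor and 288 and 320.1 CPM in WT. Its log2 fold change was -0.02 ± 0.12, with an interval of -0.32 to 0.29.

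In chain elongation, BCAT4 (AT3G19710), the aminotransferase that deaminates methionine at the first step, had 246 and 166 CPM in the overexpressor, against 143 and 162 CPM in WT. Overexpressor replicate 1 was well above the other libraries, while overexpressor replicate 2 was close to WT replicate 2. BCAT4 had a log2 fold change of 0.43 ± 0.20 with an interval of -0.08 to 0.95, or 0.13 without overexpressor replicate 1. MAM1 (AT5G23010), the condensing enzyme of the first elongation cycles, had 226 and 175 CPM in the overexpressor, against 202 and 238 CPM in WT. The values overlap, and the log2 fold change was -0.13 ± 0.16, with an interval of -0.53 to 0.27. MAM3 (AT5G23020), the condensing enzyme that also makes the longest chains, had 8.95 and 10.6 CPM in the overexpressor, against 16.5 and 24.9 CPM in WT. Both overexpressor values were below both WT values, and the WT pools themselves differed, with WT replicate 2 the higher. The log2 fold change was -1.09 ± 0.23, which is a fold of 0.47 (95% interval 0.313 to 0.707). The adjusted p was 0.119 with edgeR and 0.00525 with DESeq2, both after Benjamini-Hochberg adjustment. Without WT replicate 1 edgeR gave MAM3 a log2 fold change of -1.33 and an adjusted p of 0.0283, and without WT replicate 2 a log2 fold change of -0.75 and an adjusted p of 0.0528. Without overexpressor replicate 1 and without overexpressor replicate 2 the adjusted p of MAM3 was 0.508 and 0.613 in edgeR after the same adjustment. The intervals given here are for single genes and are not adjusted for the number of genes tested.

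**Figure D2:**
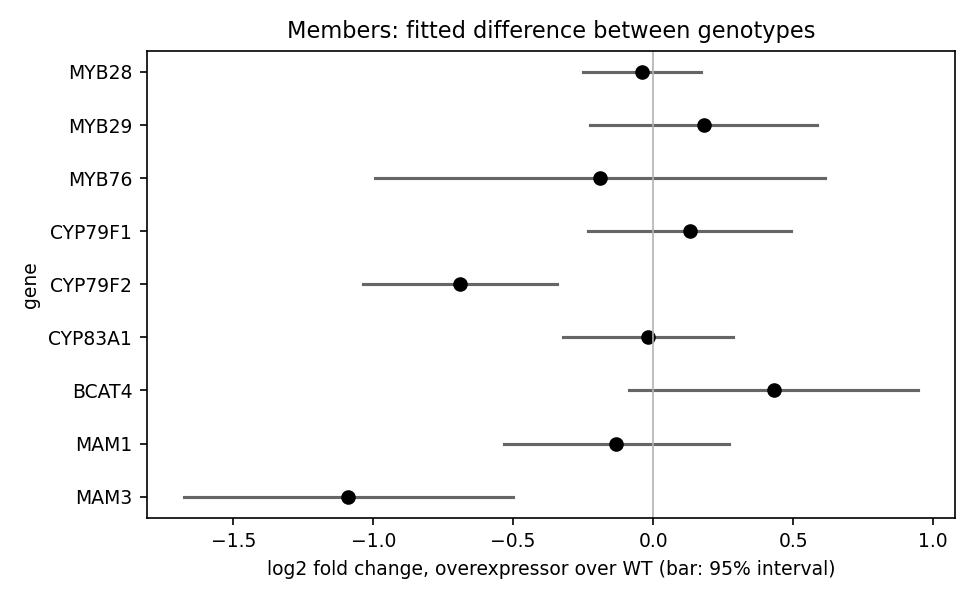
Log2 fold change of overexpressor over WT for the 9 genes (point) with its unadjusted 95% interval (line), from edgeR. The intervals of CYP79F2 and MAM3 lie below 0, the other 7 include 0, and no gene passed the adjusted threshold in edgeR.

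MAM1 with MAM3, CYP79F1 with CYP79F2 and MYB29 with MYB76 are tandem pairs, with 0 protein-coding genes between the partners in the TAIR10.1 annotation. MYB76, the less expressed gene of its pair, overlapped between genotypes, and its ratio to MYB29 was not computed. The ratio of partners within a library does not depend on how libraries are scaled. MAM3 stood at 3.79% and 5.82% of MAM1 in the overexpressor, against 7.86% and 10.04% in WT, by TPM. CYP79F2 stood at 6.74% and 6.82% of CYP79F1 in the overexpressor, against 12.8% and 11.2% in WT. For both ratios the 2 overexpressor libraries were below the 2 WT libraries. MAM3 and CYP79F2 were already seen to be lower and their partners to overlap, so the ratios restate that difference and are no separate support. For MAM3 to MAM1 the mean log2 ratio was -4.41 ± 0.44 in the overexpressor and -3.49 ± 0.25 in WT, and for CYP79F2 to CYP79F1 it was -3.88 ± 0.01 in the overexpressor and -3.06 ± 0.13 in WT (SD, n = 2 each). The two-sided exact permutation p was 0.333 for each of these ratios, the smallest that the design allows.

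MAM3 was highest in WT replicate 2, as were the summed endodermis and root hair markers. CYP79F2 differed little between the WT pools, at 25.0 CPM in WT replicate 1 and 25.8 CPM in WT replicate 2. In the same pools the endodermis markers summed to 16.7 and 29.4 CPM and the root hair markers to 0.358 and 7.45 CPM. The root hair sum of WT replicate 1 rests on 1 read of COBL9, 3 of EXPA7 and 0 of EXPA18. The part of root tissue in the difference of MAM3 or of CYP79F2 between genotypes was not tested. Coding sequences of CYP79F1 and CYP79F2 are 91.1% identical over aligned bases in the TAIR10.1 annotation, with an identical run of 100 bases, and the estimated reads of CYP79F2 were fractional in every library (333.3 and 391.5 in the overexpressor, 280.1 and 714.1 in WT). Reads were therefore shared out between these genes by estimation, and their separate levels carry that uncertainty. MAM1 and MAM3 are 83.5% identical with a longest identical run of 30 bases, and the reads of MAM3 were whole numbers in every library (172 and 292 in the overexpressor, 185 and 689 in WT).

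**Figure D3:**
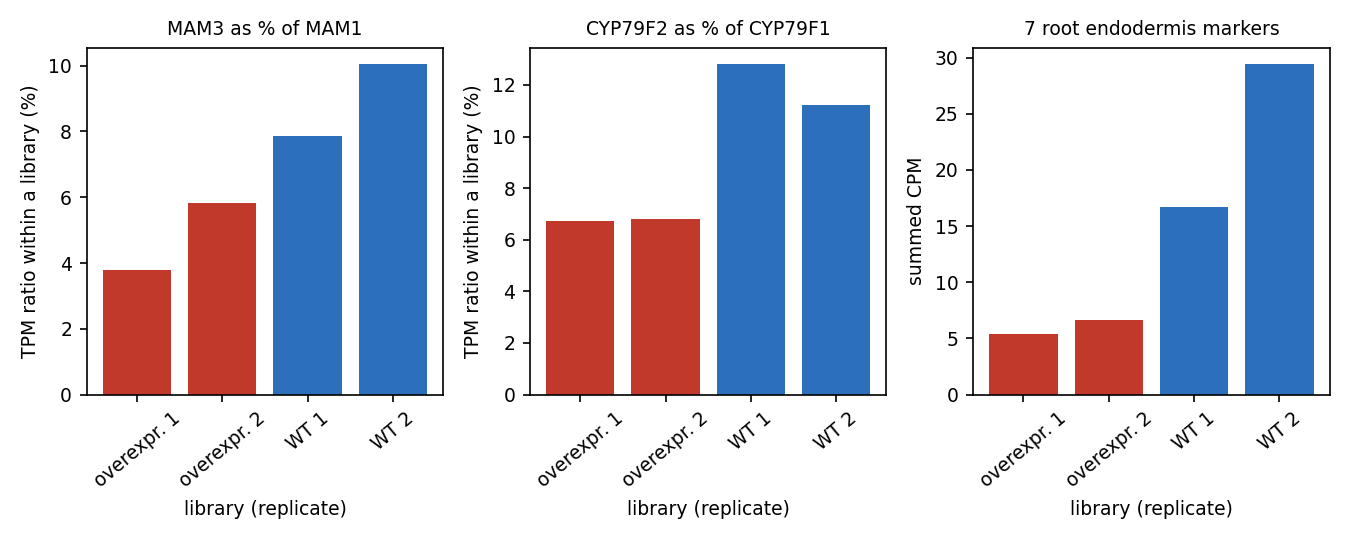
TPM of MAM3 as a percentage of MAM1 and of CYP79F2 as a percentage of CYP79F1 within each library, and the summed CPM of 7 root endodermis markers; each bar is 1 library. All 3 quantities are lower in both overexpressor libraries than in both WT libraries.

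Beyond the members, 46 genes in 7 lists cover the other steps of the branch, and 41 of them had enough reads for a test. Of these, 1 rose and 0 fell at an adjusted p below 0.05 in edgeR, and 15 had an unadjusted p below 0.05, beside 0.139%, 0.0103% and 21.7% of all genes tested, with a median log2 fold change of 0.16. Both overexpressor libraries lay above both WT libraries for 14 of the 41 and below them for 4, beside 28.7% and 28.4% of all genes tested.

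The other chain elongation genes had 0 of 7 past the threshold, with 0 at an unadjusted p below 0.05 and 0 by DESeq2, and a median log2 fold change of 0.05. Among them IPMI_LSU1 (AT4G13430), the large subunit of the isomerase, had 397 and 337 CPM in the overexpressor, against 321 and 342 CPM in WT. IPMDH1 (AT5G14200), the dehydrogenase of the cycle, had 293 and 234 CPM in the overexpressor, against 251 and 257 CPM in WT. Later steps of the core structure had 0 of 8 past the threshold in edgeR and 0 by DESeq2, with 4 at an unadjusted p below 0.05, where the share over all genes was 21.7%. All 8 had a log2 fold change above 0, as did 9440 of the 19474 genes tested. Both overexpressor libraries lay above both WT libraries for 5 of the 8, beside 28.7% of all genes tested, and 3 overlapped. Their median was 0.36, or 0.23 without overexpressor replicate 1 and 0.48 without overexpressor replicate 2, beside -0.01 over all genes tested. UGT74C1 (AT2G31790), a glucosyltransferase of the aliphatic branch, had 172 and 142 CPM in the overexpressor, against 117 and 128 CPM in WT, and a log2 fold change of 0.36 ± 0.12. GGP1 (AT4G30530), a peptidase that processes the glutathione conjugate, had 212 and 190 CPM in the overexpressor and 134 and 174 CPM in WT. Its log2 fold change was 0.38 ± 0.15, with an adjusted p of 0.228 in edgeR after Benjamini-Hochberg adjustment. With each library left out in turn, the log2 fold change of GGP1 ran from 0.22 without WT replicate 1 to 0.58 without WT replicate 2. GSTU20 (AT1G78370), a glutathione transferase assigned to this branch and the most abundant gene of the list, overlapped between genotypes at a log2 fold change of 0.14 ± 0.12. SUR1 (AT2G20610), the C-S lyase shared with the indole branch, overlapped too, at 0.28 ± 0.17.

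Side chain genes had 0 of 7 tested members past the threshold in edgeR, with 1 at an unadjusted p below 0.05 and 0 by DESeq2. FMOGS-OX3 (AT1G62560), an S-oxygenase of the side chain, had 97.2 and 75.0 CPM in the overexpressor, against 66.0 and 75.1 CPM in WT. AOP2 (AT4G03060), the alkenyl-forming enzyme that is known to be non-functional in Col-0, had a log2 fold change of -0.00 ± 0.14, and AOP3, its neighbour, named after its values were seen, had 0 reads in all 4 libraries, which allows up to 0.109 to 0.156 CPM in the overexpressor and 0.108 to 0.268 CPM in WT. The sulfate-activating kinases APK1 and APK2, which feed the last sulfation, had log2 fold changes of 0.15 ± 0.13 and 0.32 ± 0.16, neither past the threshold in edgeR or DESeq2.

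Of the 3 transporters, 0 passed in edgeR and 2 had an unadjusted p below 0.05, against 21.7% of all genes. DESeq2 called 1 lower, GTR2, against 1.48% of all genes, the 1 of 15 alternatives in which GTR2 passed. GTR2 (AT5G62680), a plasma membrane importer that loads glucosinolates into the phloem, had 31.2 and 39.1 CPM in the overexpressor, against 55.7 and 57.3 CPM in WT. Its log2 fold change was -0.68 ± 0.13, with an adjusted p of 0.110 in edgeR and 0.00414 in DESeq2 after Benjamini-Hochberg adjustment. GTR3 (AT1G18880), a transporter of the same subfamily known from roots, had 7.54 and 7.11 CPM in the overexpressor, against 10.9 and 15.01 CPM in WT. Its log2 fold change was -0.83 ± 0.20, with an adjusted p of 0.129 in edgeR after Benjamini-Hochberg adjustment. That p was 0.0448 without WT replicate 1, the 1 of 15 alternatives in which GTR3 passed, and ran up to 0.659 in the others. GTR1 (AT3G47960), the partner of GTR2 in phloem loading, had 52.5 and 87.3 CPM in the overexpressor and 51.1 and 55.2 CPM in WT, a log2 fold change of 0.40 ± 0.24. GTR2 and GTR3, like MAM3 and CYP79F2, were lower in the pools with less endodermis marker RNA. The summed root hair markers overlapped between genotypes, at 0.510 CPM in overexpressor replicate 2 and 0.358 CPM in WT replicate 1. The part of root tissue was not tested.

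The 7 other regulators had 0 past the threshold in edgeR and 3 at an unadjusted p below 0.05, against 21.7% of all genes. MYC2 (AT1G32640), the jasmonate-responsive partner of the MYB factors, had 81.8 and 43.2 CPM in the overexpressor, against 30.04 and 31.1 CPM in WT. DESeq2, which called 4.41% of all genes higher, called it higher, the 1 of 15 alternatives in which MYC2 passed. In edgeR the adjusted p of MYC2 was 0.166 after Benjamini-Hochberg adjustment. The log2 fold change of MYC2 was 1.03 ± 0.30, or 0.51 without overexpressor replicate 1. Its relatives MYC3 and MYC4 had log2 fold changes of 0.03 ± 0.12 and -0.18 ± 0.15. SDI2 (AT1G04770), a sulfur-deficiency protein related to SDI1, which represses MYB28 function, had 29.3 and 26.3 CPM in the overexpressor, against 21.7 and 20.0 CPM in WT.

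Breakdown genes held the one call of these lists. BGLU30 (AT3G60140), also named DIN2, a beta-glucosidase that acts on glucosinolates under sulfur deficiency, had 12.95 and 20.5 CPM in the overexpressor, against 0.447 and 0.398 CPM in WT, from 249 and 562 reads in the overexpressor and 5 and 11 reads in WT. It rose by 5.32 ± 0.35 on the log2 scale, with an adjusted p of 0.0432 in edgeR after Benjamini-Hochberg adjustment. BGLU30 passed the threshold in 12 of 15 alternatives, among them DESeq2 at an adjusted p of 7.2e-23 after the same adjustment. It missed the threshold in limma-voom, at 0.0913 after that adjustment, and when either overexpressor library was dropped. Its log2 fold change ran from 4.94 to 5.62 over the fits that each dropped a library. NSP5 (AT5G48180), a nitrile specifier protein, had 307 and 435 CPM in the overexpressor, against 58.0 and 90.2 CPM in WT. The genotypes were well apart at a log2 fold change of 2.32 ± 0.28, yet the adjusted p was 0.0634 in edgeR and 9.7e-07 in DESeq2 after Benjamini-Hochberg adjustment. In edgeR the adjusted p of NSP5 was 0.162 and 0.325 when overexpressor replicate 1 or 2 was left out, and was 0.0325 and 0.00889 when WT replicate 1 or 2 was. ESM1 (AT3G14210), which favours isothiocyanate over nitrile release, had 588 and 543 CPM in the overexpressor, against 346 and 358 CPM in WT. Its log2 fold change was 0.69 ± 0.09, with an adjusted p of 0.0772 in edgeR and 3.2e-09 in DESeq2 after Benjamini-Hochberg adjustment. ESM1 passed the threshold in 4 of 15 alternatives. With each library left out in turn, the log2 fold change of ESM1 ran from 0.64 to 0.75. TGG1 (AT5G26000), the most abundant myrosinase of the shoot, overlapped between genotypes at -0.09 ± 0.11. TGG2 (AT5G25980), the second one, had a log2 fold change of 0.44 ± 0.14. The adjusted p of TGG2 was 0.176 in edgeR and 0.0427 in DESeq2 after Benjamini-Hochberg adjustment. In all, 1 of 7 breakdown genes tested in edgeR rose, where 0.139% of all genes were called higher. The list was fixed with earlier results of these data known, so its share is a description only. DESeq2, which keeps genes by another filter, called 5 breakdown genes higher, beside 4.41% of the genes that it tested. The root myrosinases TGG4 (AT1G47600) and TGG5 (AT1G51470), named after their values were seen, were too low to be tested. Each had 0 reads in both overexpressor libraries, which allows up to 0.156 CPM in replicate 1 and 0.109 CPM in replicate 2. In WT replicates 1 and 2, TGG4 had 4.58 and 12.4 reads and TGG5 had 3.42 and 19.6 reads. The values of WT replicate 1 are thus near the floor of 3 reads. They are close copies, and their reads were partly shared out by estimation.

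**Figure D4:**
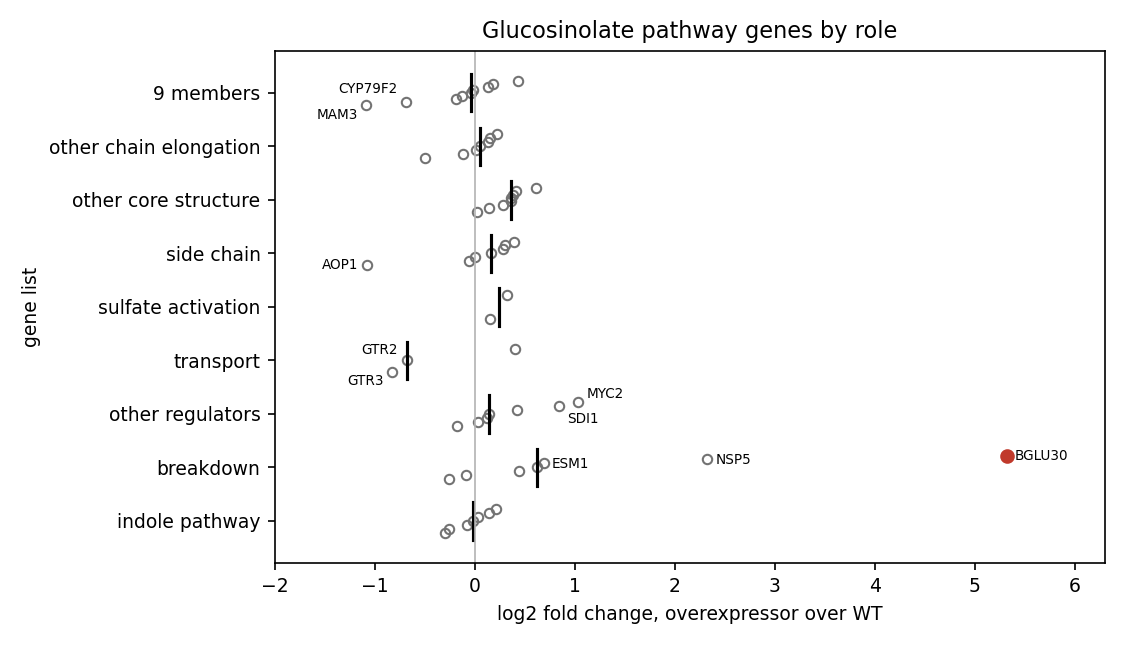
Log2 fold change of overexpressor over WT for every tested gene of the 9 members and of 8 further lists; each point is 1 gene, the black bar is the median of a list, and the filled red point is the gene past the adjusted threshold in edgeR. Names are given for genes beyond 0.65 in either direction; the list of members has a median of -0.04, and BGLU30 is the gene past the threshold, at 5.32.

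The mean centred profile of the 9 members over the 4 libraries was nearly flat, at 0.05 and -0.20 in overexpressor replicates 1 and 2 and 0.04 and 0.11 in WT replicates 1 and 2 on the log2 scale. Among 18142 other genes of at least 1 CPM, the 5 nearest to it by root mean square distance over 4 libraries were AT4G17080, AT1G31920, BSK2 (AT5G46570), PIE1 (AT3G12810) and KCS10 (AT2G26250), at distances of 0.010 to 0.015 on that scale. None of these 5 belongs to the pathway lists, and 4 libraries are few for such a likeness.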

How the data were processed

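RNA of seedlings was measured in 4 stranded, poly(A)-enriched libraries, per the labels' protocols. Each library has 1 deposited gene table, whose columns are lengths, TPM and estimated counts per the file headers. The authors left the estimated counts unnormalized; 96.9% to 97.3% were whole numbers (tolerance 0.001). TPM, as deposited by the authors, correct for effective length and sum to a constant. The sources used here name no quantifier, build or annotation, and DESeq2 is listed in the submitters' processing notes. No coordinates or sequences are therefore printed, and TAIR10.1 served for names (32835 of 33602 identifiers matched), neighbours and coding identity, aligned with MAFFT 7.526.

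Rounded estimated counts went into edgeR 4.0.16 under R 4.3.3, with filterByExpr (minimum count 10, minimum total 15), TMM, glmQLFit, glmQLFTest, and Benjamini-Hochberg adjustment over 19474 genes. All 9 members passed the filter. The SE is the unshrunk coefficient divided by the square root of F. Alternatives used DESeq2 1.42.0, limma 3.58.1, other scalings and filters, a replicate block, and each library left out. The tests were checked on simulated data. Floors for 0 reads correspond to 3 reads and cover counting error only.

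Members and lists were chosen with earlier results of these data known. The named genes are all members, up to 4 genes of each list by highest mean TPM, every listed gene past the threshold, and the 5 genes nearest in profile; AOP3, TGG4 and TGG5 were added after their values were seen.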

Additional observations from a re-analysis of the deposited data

How the results depend on the processing

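Of 135 member values under 15 alternatives, 119 kept their direction and their side of the threshold, 3 passed it and 13 changed sign. Those that passed were CYP79F2 and MAM3 with DESeq2, where 2 members were called lower, and MAM3 without WT replicate 1, where 1 was. Signs changed for members near 0. With scaling by library size only, MYB28 stood at 0.089 and CYP83A1 at 0.092, and the median of the members at 0.089, a setting that moved the median of all genes from -0.01 to 0.10. With limma-trend on log2(TPM + 1) and log2(TPM + 0.1), MYB28 stood at 0.021 in both, and CYP83A1 at 0.046 and 0.047. Leaving out each library in turn gave ranges of -0.076 to 0.0095 for MYB28, -0.0062 to 0.36 for MYB29, -0.50 to 0.15 for MYB76, -0.012 to 0.28 for CYP79F1, -0.13 to 0.10 for CYP83A1 and -0.31 to 0.045 for MAM1, with 0 to 1 members called lower. CYP79F2, BCAT4 and MAM3 kept their sign in all 15.

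Over all genes edgeR called 27 higher and 2 lower. The counts were 912 and 307 with DESeq2, 0 and 0 with limma-voom (4081 genes at an unadjusted p below 0.05), 570 and 239 with library size only, 305 and 57 with no low-count filter, 65 and 10 with at least 1 CPM in 2 libraries, 250 and 24 with log2(TPM + 1), 176 and 18 with log2(TPM + 0.1), 163 and 21 with organelle genes left out, and 329 and 43 with the replicate block. Without each library they ran from 0 to 1189 higher and from 0 to 1014 lower, and a lone library is then taken to vary like the other genotype. The replicate numbers did not pair the libraries (correlation of deviations 0.06 across genes), and the block called 0 members. For these calls the cause of the changes was not tested. Depth limits MYB76, with 49 to 78 reads a library.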

Other observations

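The indole branch shares some of its later enzymes with the aliphatic one. It had 0 of 7 tested genes past the threshold in edgeR, with 0 at an unadjusted p below 0.05 and 0 by DESeq2. The median log2 fold change was -0.02. MYB34 (AT5G60890), an activator of that branch, had 73.1 and 58.1 CPM in the overexpressor, against 62.2 and 70.6 CPM in WT. CYP83B1 (AT4G31500), which oxidises the indole aldoxime as CYP83A1 does the aliphatic ones, had 255 and 191 CPM in the overexpressor, against 209 and 228 CPM in WT. CYP79B3 (AT2G22330), which makes that aldoxime from tryptophan, had 118 and 71.6 CPM in the overexpressor and 83.9 and 80.5 CPM in WT, and SOT16 (AT1G74100), its sulfotransferase, had 84.7 and 64.8 CPM in the overexpressor and 73.1 and 85.1 CPM in WT. All 4 genes overlapped between genotypes, and each was higher in overexpressor replicate 1 than in overexpressor replicate 2.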
